A study of Mus musculus with 6 samples.

Results

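The 10 small leucine-rich proteoglycan (SLRP) genes *Dcn*, *Bgn*, *Lum*, *Fmod*, *Ogn*, *Prelp*, *Aspn*, *Omd*, *Optc* and *Podn* are described here, out of 34745 genes listed for each library. They were taken by name as a protein family. Transcripts were measured by RNA-seq in cardiac fibroblasts from the left ventricular muscle of KDM5B-KO mice (3 libraries labelled KO) and littermate wild-type mice (3 libraries labelled WT). All mice had received myocardial infarction (MI), in which the left anterior descending artery was tied off permanently. The study's methods for its MI model give the mice as males of 8 to 10 weeks. Cells were taken on Day 7, so both groups are post-infarct and no sham group is analysed here. The KO mice carry a CRISPR/Cas9 deletion in *Kdm5b* that takes out the JmjC domain, the part of this histone H3K4 demethylase that holds its enzyme activity, and shifts the reading frame. The labels do not say whether each library came from 1 mouse or from pooled mice, so p-values measure the spread between these libraries, which may be technical.

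SLRPs are secreted proteins with a core of leucine-rich repeats that fold into a curved solenoid, and many carry chondroitin, dermatan or keratan sulfate chains. They bind fibrillar collagens and set how fibrils grow and pack, and several of them also bind TGF-β or cell-surface receptors. In the heart they are made mainly by fibroblasts, and they are part of the matrix that forms the scar after MI. The family is divided into classes. Decorin (*Dcn*), biglycan (*Bgn*) and asporin (*Aspn*) belong to class I, lumican (*Lum*), fibromodulin (*Fmod*), *Prelp* and osteomodulin (*Omd*) to class II, osteoglycin (*Ogn*) and opticin (*Optc*) to class III, and podocan (*Podn*) to class V.

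Most members lie beside another member. In mm10, *Optc* (chr1:133897199-133907999, minus strand) ended 2.304 kb from *Prelp* (chr1:133910304-133921414, minus strand), and *Fmod* (chr1:134037254-134048277, plus strand) followed 115.839 kb later. *Dcn* (chr10:97479500-97518162) and *Lum* (chr10:97565501-97572703) lay 47.338 kb apart on the plus strand with no gene between them. *Aspn* (chr13:49544443-49567557), *Omd* (chr13:49582766-49592609) and *Ogn* (chr13:49608071-49624500) formed a run on the plus strand with gaps of 15.208 kb and 15.461 kb. All 3 lie inside the span of *Cenpp*, a centromere protein gene on the opposite strand, which held only 21 to 37 counts per library. *Bgn* (chrX:73483602-73495933, plus strand) and *Podn* (chr4:108014791-108096445, minus strand) stand alone, and *Podn* overlaps *Scp2*, a sterol carrier gene on the same strand with 518 to 738 counts.

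Promoter windows from RefSeq on GRCm38.p6 (250 bases before to 50 bases after a start site) were found for 8 of the 10 members. *Dcn* and *Lum* had no entry in the set of windows used here. The 6 windows below are shown because they belong to genes described next that differ widely in level, from the most abundant member to the one at the edge of detection. Capitals mark CAGAC (the SMAD box), GGGCGG (the GC box) or TATAAA (the TATA box), each searched on both strands.

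Bgn (chrX:73483351-73483650, plus strand): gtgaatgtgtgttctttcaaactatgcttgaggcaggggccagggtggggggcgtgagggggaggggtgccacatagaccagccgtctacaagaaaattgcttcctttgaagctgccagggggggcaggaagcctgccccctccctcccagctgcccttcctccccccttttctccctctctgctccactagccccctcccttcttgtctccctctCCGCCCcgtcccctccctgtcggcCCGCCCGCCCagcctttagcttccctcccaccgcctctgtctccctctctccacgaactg

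Ogn (chr13:49607765-49608064, plus strand): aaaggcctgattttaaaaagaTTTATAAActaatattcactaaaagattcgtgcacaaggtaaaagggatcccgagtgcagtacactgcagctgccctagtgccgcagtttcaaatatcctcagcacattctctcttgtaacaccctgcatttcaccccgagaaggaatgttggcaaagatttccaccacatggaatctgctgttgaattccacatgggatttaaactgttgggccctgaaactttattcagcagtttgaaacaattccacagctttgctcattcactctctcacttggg

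Aspn (chr13:49544193-49544492, plus strand): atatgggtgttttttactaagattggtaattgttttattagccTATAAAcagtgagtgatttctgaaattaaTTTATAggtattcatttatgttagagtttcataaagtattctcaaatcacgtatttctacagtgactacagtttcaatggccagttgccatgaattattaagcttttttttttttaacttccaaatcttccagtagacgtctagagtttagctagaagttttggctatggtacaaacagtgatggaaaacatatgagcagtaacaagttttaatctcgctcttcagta

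Prelp (chr1:133921352-133921651, minus strand): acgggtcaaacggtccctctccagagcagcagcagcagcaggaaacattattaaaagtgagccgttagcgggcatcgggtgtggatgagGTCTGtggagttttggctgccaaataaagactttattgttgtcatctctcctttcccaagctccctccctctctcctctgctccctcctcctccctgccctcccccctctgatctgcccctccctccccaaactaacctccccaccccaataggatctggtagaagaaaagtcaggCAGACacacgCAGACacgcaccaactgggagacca

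Fmod (chr1:134037004-134037303, plus strand): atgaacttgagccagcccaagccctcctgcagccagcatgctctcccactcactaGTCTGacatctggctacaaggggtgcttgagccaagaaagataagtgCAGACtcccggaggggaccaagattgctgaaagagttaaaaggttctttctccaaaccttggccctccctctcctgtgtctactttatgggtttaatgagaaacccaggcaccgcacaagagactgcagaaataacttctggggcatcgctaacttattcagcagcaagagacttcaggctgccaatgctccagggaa

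Omd (chr13:49582212-49582511, plus strand): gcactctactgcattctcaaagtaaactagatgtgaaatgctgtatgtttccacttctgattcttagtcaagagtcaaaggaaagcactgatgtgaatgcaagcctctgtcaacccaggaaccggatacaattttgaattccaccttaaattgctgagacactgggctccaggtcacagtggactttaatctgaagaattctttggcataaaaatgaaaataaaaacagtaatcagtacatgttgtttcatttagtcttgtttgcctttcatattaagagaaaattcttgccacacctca

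The windows had little base composition in common. GC content was 63.7% at *Bgn*, 55.3% at *Prelp*, 51.0% at *Fmod*, 42.3% at *Ogn*, 37.7% at *Omd* and 31.0% at *Aspn*, against a median of 52.7% over 32851 promoter windows of this length. GGGCGG occurred at *Bgn* and *Podn* and in 35.7% of all windows. TATAAA occurred at *Aspn* and *Ogn* and in 13.6% of all windows, and CAGAC at *Fmod*, *Optc*, *Podn* and *Prelp* and in 49.6% of all windows. The full CRE site (TGACGTCA, in 1.79% of all windows) and the AP-1 site (TGANTCA, in 7.81%) were in none of the members' windows, and none of the letter strings searched contains another. These matches describe the letters in the windows only.

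Per library, 12025403 to 15329427 reads or fragments were counted on genes, and 14084 genes passed edgeR's expression filter. Of these, 1760 were lower in the libraries labelled KO (12.5% of the genes tested; 1131 genes without KO replicate 3) and 2488 were higher (17.7%), 30.2% in all, by edgeR's quasi-likelihood test at a Benjamini-Hochberg adjusted p under 0.05. *Kdm5b* itself was at 98.1, 107 and 105 CPM (counts relative to the library's normalized total) in KO and 108, 129 and 123 in WT (edgeR adjusted p = 0.0574). Every KO library lay below every WT library, but the difference in total count did not pass this threshold. By Q-PCR the paper reports *Kdm5b* mRNA nearly absent from KO cardiac fibroblasts, which the total counts here do not show. The reason for this difference was not tested. *Xist* and the Y-linked *Ddx3y* were both counted in every library, at 90.5 CPM or more and 64.5 CPM or more, although the mice are given as male. Fibroblast markers were abundant in all libraries, and the marker lists of other cell types are given beside the results below.

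Most SLRP genes were lower in KO under TMM, and none passed the threshold relative to fibroblast markers or to cardiomyocyte and macrophage markers (given below). Of the 10 members, 9 passed the filter and 7 of those were lower in KO by edgeR (*Dcn*, *Bgn*, *Lum*, *Fmod*, *Ogn*, *Prelp* and *Aspn*), while 0 were higher, where 12.5% of all tested genes were lower. The 7 log2 fold changes lay between -0.50 and -0.40, a reduction of 24.2% to 29.1%, although the WT CPM of these genes spanned a 232-fold range. The median over the 9 tested members was -0.45, against -0.015 over all genes tested and -0.38 over the genes that were lower. In 8 of the 9 tested members every KO library lay below every WT library, a pattern shown by 22.4% of all tested genes (47% did not overlap in either direction). In bulk RNA, fewer cells that make a transcript and less of it per cell cannot be told apart.

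**Figure D1:**
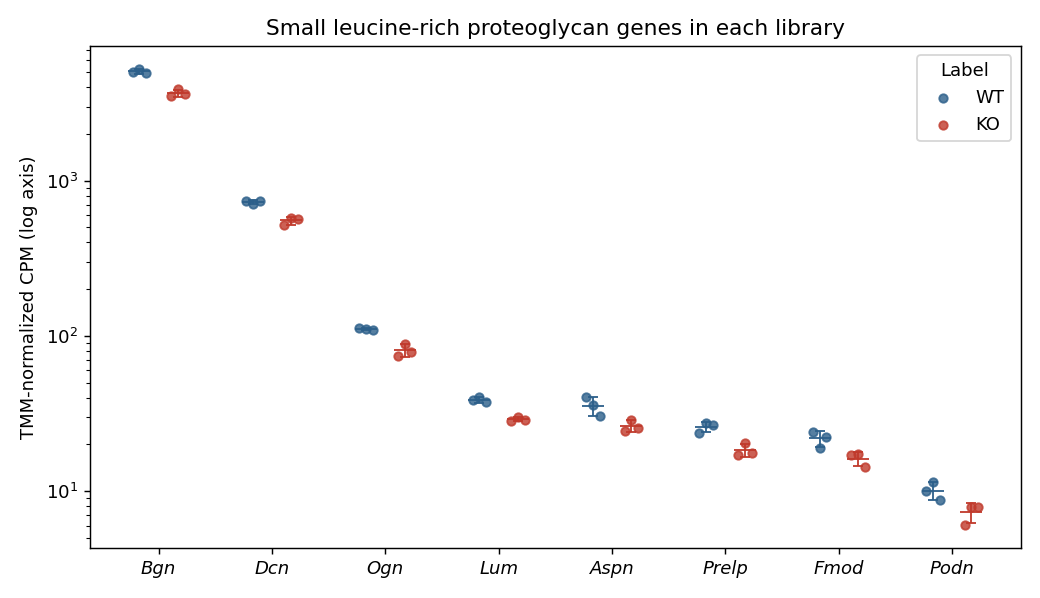
TMM-normalized CPM (log axis) of the 8 members with a count in every library, ordered by their WT level, with 3 libraries per label as points and the mean with its SD as a bar. The KO points sit below the WT points in each gene, by a similar distance on the log axis from *Bgn* (KO mean 3668) to *Podn* (KO mean 7.29).

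Class I held the most abundant members, *Bgn* and *Dcn*, while *Aspn* was below *Ogn* and *Lum* by FPKM in WT. Biglycan, which carries chondroitin or dermatan sulfate chains, binds collagen and signals through TLR2 and TLR4 when released, was at 3503, 3891 and 3609 CPM in KO and 5034, 5270 and 4933 in WT. Its highest KO library was well under its lowest WT library. The log2 fold change was -0.47 (SE 0.05, edgeR adjusted p = 0.00038). Decorin, which binds collagen I and TGF-β, was at 517, 579 and 569 CPM in KO and 744, 710 and 743 in WT, again without overlap. Its log2 fold change was -0.40 (SE 0.05, edgeR adjusted p = 0.00096). Asporin, which lacks a glycosaminoglycan chain and binds TGF-β, was at 24.5, 28.8 and 25.7 CPM in KO and 40.1, 36.1 and 30.4 in WT. The WT libraries spread more for *Aspn* than for *Bgn* or *Dcn*, and the lowest of them was close to the highest KO library. *Aspn* fell by 0.43 on the log2 scale (SE 0.11, edgeR adjusted p = 0.022), a call that was lost without KO replicate 1 or 3 or WT replicate 1 or 2 (adjusted p up to 0.0732).

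In class II, lumican, a keratan sulfate proteoglycan that limits the width of collagen fibrils, was at 28.4, 30.1 and 28.6 CPM in KO and 38.5, 40.6 and 37.3 in WT. The 3 libraries of each label were close together, and the log2 fold change was -0.42 (SE 0.07, edgeR adjusted p = 0.0027). *Lum* is among the collagen fibril genes the study chose to display from these libraries, so its direction is not independent evidence. *Prelp*, which has a basic N-terminus that binds heparan sulfate and links basement membrane to collagen, was at 17.0, 20.5 and 17.5 CPM in KO and 23.7, 27.4 and 26.7 in WT. Its log2 fold change was the most negative of the 7, within the errors of the others, at -0.50 (SE 0.10, edgeR adjusted p = 0.0079). Fibromodulin, which binds collagen I and directs its crosslinking, was at 17.1, 17.3 and 14.2 CPM in KO and 24.1, 19.0 and 22.5 in WT. WT replicate 2 was close to the 2 higher KO libraries. *Fmod* fell by 0.43 on the log2 scale (SE 0.12, edgeR adjusted p = 0.0286), and the call was lost without KO replicate 3, WT replicate 1 or WT replicate 3 (adjusted p up to 0.0952).

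The 4th member of class II, *Omd*, a keratan sulfate proteoglycan best known from bone, was at the edge of detection. It had 2, 0 and 0 counts in KO and 3, 7 and 1 in WT, too few to pass the filter. Over the summed counts of each label (2 against 11) the ratio of KO to WT was 0.195, with an exact 95% counting interval of 0.021 to 0.893 that leaves out the spread between libraries. *Omd* was therefore nearly silent while its neighbours *Aspn* and *Ogn*, within 15.461 kb on either side, were both among the called genes.

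In class III, osteoglycin, also called mimecan, was at 74.6, 89.1 and 78.3 CPM in KO and 112, 110 and 108 in WT. The WT libraries agreed within a few CPM and all lay above KO, and the log2 fold change was -0.45 (SE 0.07, edgeR adjusted p = 0.0023). Opticin, known from the vitreous of the eye and as an inhibitor of new vessel growth, had 0, 5 and 14 counts in KO and 12, 6 and 13 in WT. The labels overlapped, the log2 fold change of -0.66 had a 95% interval of -2.37 to 1.06 and the edgeR adjusted p was 0.545, so no difference was detectable at this depth. The value ran from -1.84 without KO replicate 3 to -0.14 without KO replicate 1. *Optc* is among the negative regulators of angiogenesis that the study displayed from these same libraries.

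*Podn*, the class V member, which binds collagen and restrains smooth muscle growth, was at 6.06, 7.95 and 7.87 CPM in KO and 9.94, 11.5 and 8.82 in WT. The labels did not overlap, and the log2 fold change of -0.46 was of the same size as in the other members. Its edgeR adjusted p of 0.0569 missed the threshold, and the upper quartile in place of TMM gave 0.0428. The *Scp2* gene that overlaps it was at 42.4, 41.6 and 43.8 CPM in KO and 51.7, 45.9 and 42.7 in WT (log2 fold change -0.13, edgeR adjusted p = 0.25). How reads in the shared span were assigned is not given in the sources used here. The exact permutation test, two-sided, gave p = 0.1 for the 8 members without overlap, the smallest p that 3 libraries against 3 allow, and p = 0.3 for *Optc*.

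Levels of different genes were compared per length. The deposited FPKM divides by a gene length that, for *Bgn*, *Podn*, *Optc*, *Prelp* and *Fmod*, equalled the sum of all distinct exons in GENCODE M21, with overlapping exons counted more than once. The length used for *Bgn* was 9670 bases where its main mRNA has 2419, and for *Podn* it was 9261 where the mRNA has 3170. For this reason CPM per kilobase (kb) of the main mRNA is given beside FPKM.

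In WT the order by deposited FPKM was *Bgn* (519 ± 16.7, SD, n = 3), *Dcn* (347 ± 9.93), *Ogn* (42.8 ± 0.67), *Lum* (18.5 ± 0.77), *Aspn* (13.5 ± 1.86), *Fmod* (5.91 ± 0.71), *Prelp* (5.76 ± 0.42), *Podn* (1.07 ± 0.14), *Omd* (0.16 ± 0.13) and *Optc* (0.14 ± 0.05). *Fmod* and *Prelp* overlapped in their WT libraries, as did *Omd* and *Optc*, and the other neighbours did not. Per kb of mRNA, *Bgn* reached 2099 ± 71.5 CPM and *Dcn* 416 ± 11.0, so *Bgn* exceeded *Dcn* 5.04-fold on this scale and 1.49-fold by FPKM. *Lum* (15.8 ± 0.69) and *Aspn* (15.3 ± 2.09) overlapped per kb of mRNA. On both scales *Bgn*, *Dcn* and *Ogn* held the first 3 places.

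Summed over the 10 members, deposited FPKM was 683, 755 and 718 in KO and 959, 960 and 940 in WT. All KO sums lay below all WT sums, and the ratio of the means was 0.754. Without *Bgn* the sums were 315, 350 and 340 in KO and 443, 424 and 437 in WT, so the difference does not rest on the most abundant gene. Per kb of mRNA the summed CPM was 1899 ± 104 in KO and 2608 ± 62.9 in WT (SD, n = 3), a ratio of 0.728. As a share of all counts, the members took 0.445% ± 0.022 in KO and 0.598% ± 0.015 in WT.

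The mixture of SLRP transcripts stayed within the spread between libraries. By FPKM, *Bgn* made up 53.9%, 53.6% and 52.6% of the sum in KO and 53.7%, 55.9% and 53.6% in WT, and *Dcn* made up 36.9%, 37.0% and 38.5% in KO and 36.8%, 34.9% and 37.4% in WT. Per kb of mRNA, *Bgn* held 79.8% ± 0.46 in KO and 80.5% ± 0.82 in WT (SD, n = 3). The shares overlapped between labels for every member on both scales.

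**Figure D2:**
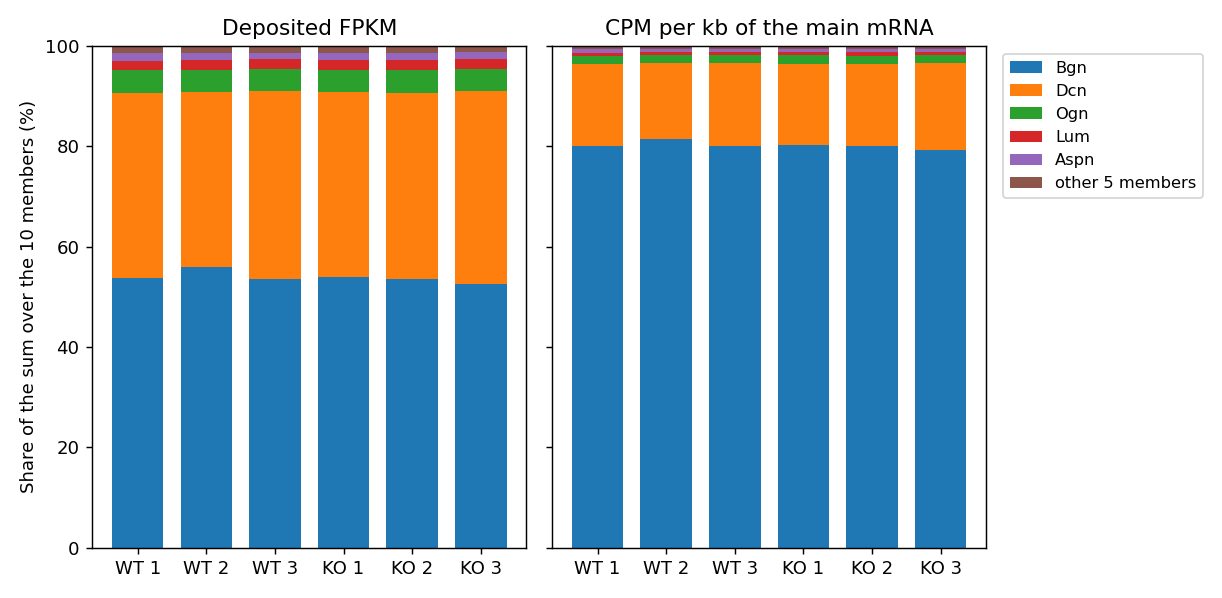
Share of each member in the sum over the 10 members (%) for each library, by deposited FPKM on the left and by CPM per kb of the main mRNA on the right. The bars of the 6 libraries look alike within a scale, with *Bgn* near 53.4% (KO mean) and 54.4% (WT mean) by FPKM and near 80% per kb of mRNA.

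Ratios of counts within a library do not depend on how libraries are scaled to each other. *Bgn* had 677, 672 and 634 counts per 100 counts of *Dcn* in KO and 677, 742 and 664 in WT. *Ogn* had 14.4, 15.4 and 13.8 per 100 of *Dcn* in KO and 14.6 to 15.5 in WT. Relative to the fibrillar collagen they decorate, *Bgn* had 31.0, 28.9 and 28.4 counts per 100 of *Col1a1* in KO and 31.9, 29.5 and 28.4 in WT, and *Dcn* had 4.58, 4.30 and 4.48 in KO and 4.72, 3.98 and 4.28 in WT. Across 12 such ratios (7 between members and 5 to *Col1a1*) the log2 difference between labels ran from -0.08 to 0.05, with an SD between libraries of the same label of 0.065 to 0.195. With 1 library left out they ran from -0.15 (*Aspn* to *Dcn*, without WT replicate 3) to 0.16 (*Aspn* to *Col1a1*, without WT replicate 1), and leaving out WT replicate 2 or KO replicate 2 also gave values down to -0.14. The labels overlapped in all 12, and the smallest Benjamini-Hochberg adjusted p of the exact two-sided permutation tests was 0.982, in a design that cannot go below an unadjusted p of 0.1.

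Genes whose CPM profiles were most like a member's were found by the root mean square (RMS) difference between log2 CPM values centred on their own mean, over 6 libraries and 11289 genes. For *Bgn* these were *Itgb5*, an integrin subunit (RMS 0.015), *Tmem132a* (0.021) and the transcription factor gene *Gata6* (0.022), where the profile of *Bgn* itself varied by 0.241 about its mean. For *Prelp* they were *Fstl3*, a secreted activin antagonist (0.036), *Ret* (0.040) and *Scarf2* (0.041). These are the smallest differences among 11289 genes, and 22.4% of all tested genes also fell in KO without overlap. Shared control of these genes was not tested.

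Of 7 further family members listed, 3 passed the filter. *Tsku*, which encodes tsukushi, was at 106, 136 and 112 CPM in KO and 138, 140 and 160 in WT (log2 fold change -0.30, edgeR adjusted p = 0.0496), a call kept in only 5 of 15 alternatives other than marker scaling. *Ecm2*, next to *Aspn* on chromosome 13, had 59, 56 and 62 counts in KO and 58, 48 and 70 in WT. The labels overlapped, and its log2 fold change of 0.08 had a 95% interval of -0.37 to 0.53 (edgeR adjusted p = 0.793). *Nyx*, which encodes nyctalopin of the retina, had 15, 10 and 16 counts in KO and 1, 0 and 0 in WT. Every KO library was above every WT library, and the ratio of summed counts was 44.0 with an exact 95% interval of 7.46 to 1778 that covers counting error only, not the spread between libraries, and is given as a description. *Nyx* passed the expression filter only through the KO libraries, so no test of it is given. *Nyx* was still low in KO, at 1.23, 0.75 and 1.03 CPM. Keratocan (*Kera*) and *Chad* had 0 counts in every library, and *Epyc*, next to *Kera* on chromosome 10, had 0 in KO and 5, 3 and 0 in WT.

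Collagens, the main binding partners of the family, were lower too under TMM, and 0 of the partners were lower under either marker scaling (against 0.27% and 0.341% of all genes), where 4 of 25 were higher against 62.5% and 60.7% of all genes. *Col1a1* was at a log2 fold change of -0.44 (SE 0.07, edgeR adjusted p = 0.0028) and *Col3a1* at -0.42 (SE 0.05, adjusted p = 0.00081). All 10 collagen genes tested among the partners were lower, between -0.47 (*Col6a2*, with *Col6a1* at -0.46) and -0.37. Over the 25 partners tested, 18 were lower and 3 higher, with a median of -0.38, where 12.5% of all genes were lower and 17.7% higher. The TGF-β ligands that decorin, biglycan and asporin bind did not all move the same way. *Tgfb1* was at 195, 184 and 185 CPM in KO and 122, 132 and 131 in WT, and it rose by 0.55 (SE 0.05, edgeR adjusted p = 0.000195). *Tgfb2* (-0.41) and *Tgfb3* (-0.41) fell (edgeR adjusted p = 0.0032 and 0.0041).

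Receptors for SLRPs also split. *Egfr*, a receptor for decorin, was lower (-0.44), while *Met* (1.16) and *Kdr* (4.23), receptors that decorin is known to engage, were higher (*Kdr* is also on the endothelial marker list). *Tlr2*, through which biglycan signals, was at 94.4, 92.8 and 107 CPM in KO and 120, 109 and 125 in WT (log2 fold change -0.27, edgeR adjusted p = 0.0289), a call kept in 8 of the same 15 alternatives. *Tlr4* was at 8.11, 36.2 and 7.80 CPM in KO and 7.70, 31.0 and 7.25 in WT, so replicate 2 of both labels stood apart and no difference was detectable (edgeR adjusted p = 0.877).

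Genes that process or cleave SLRPs and collagens gave 7 lower and 2 higher of 15 tested under TMM (median -0.34), where 12.5% of all genes were lower and 17.7% higher, and 0 lower and 6 higher under either marker scaling (median 0.087 by fibroblast and 0.059 by cardiomyocyte and macrophage markers). Under those scalings 62.5% and 60.7% of all genes were higher, with all-gene medians of 0.41 and 0.38, so the share of this list that was higher lay below that of all genes. *Bmp1* (-0.45), the procollagen C-proteinase that also removes the propeptide of biglycan, and its enhancer *Pcolce* (-0.45) fell with *Mmp2* (-0.44) and *Mmp12* (-0.46), while *Mmp13*, a collagenase, was at 86.0, 48.6 and 49.3 CPM in KO and 6.51, 6.48 and 7.82 in WT. *Mmp13* rose by 3.14 (SE 0.24, edgeR adjusted p = 6.2e-05). *Adamts4*, an aggrecanase that also cuts SLRP cores, was at 213, 145 and 182 CPM in KO and 54.8, 63.2 and 56.5 in WT, and rose by 1.63 (SE 0.13, edgeR adjusted p = 7.4e-05).

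Enzymes that build the sugar chains were read next. In the synthesis of chondroitin and dermatan sulfate, the chains of decorin and biglycan, 6 of 21 tested genes were lower and 3 higher under TMM (median -0.17), where 12.5% and 17.7% of all genes were. Under either marker scaling 0 were lower and 7 higher (median 0.25 by fibroblast and 0.23 by cardiomyocyte and macrophage markers), again below the 62.5% and 60.7% of all genes that were higher and their medians of 0.41 and 0.38. The chain polymerase *Chsy1* (-0.35), the dermatan sulfate epimerase *Dse* (-0.33) and the sulfotransferase *Chst15* (-0.57) were lower, and *Csgalnact1* (1.31), which starts chondroitin chains, and the sulfotransferase *Chst7* (0.60) were higher. In keratan sulfate synthesis, 2 of 6 tested genes were higher and 2 lower under TMM, and 3 higher and 0 lower under either marker scaling, with the same all-gene shares. The keratan sulfotransferase *Chst1* was at 18.9, 14.7 and 19.5 CPM in KO and 2.52, 3.62 and 3.27 in WT, and rose by 2.49 (SE 0.18, edgeR adjusted p = 4.0e-05), and *B3gnt2* rose by 0.93. *Chst2* (-0.31) and *B4galt1* (-0.16) were lower, but 1 of these calls was lost whichever library was left out.

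Of 19 tested proteoglycans outside the family, 10 were lower and 2 higher under TMM (median -0.36), where 12.5% of all genes were lower and 17.7% higher. Under either marker scaling 0 were lower and 4 higher, against 62.5% and 60.7% of all genes higher. The glypicans *Gpc3* (-0.45) and *Gpc4* (-0.45) fell by about as much as the SLRPs. *Srgn*, the serglycin of blood and endothelial cells (2.63), and *Col18a1*, a basement membrane collagen that carries heparan sulfate (1.74), rose.

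**Figure D3:**
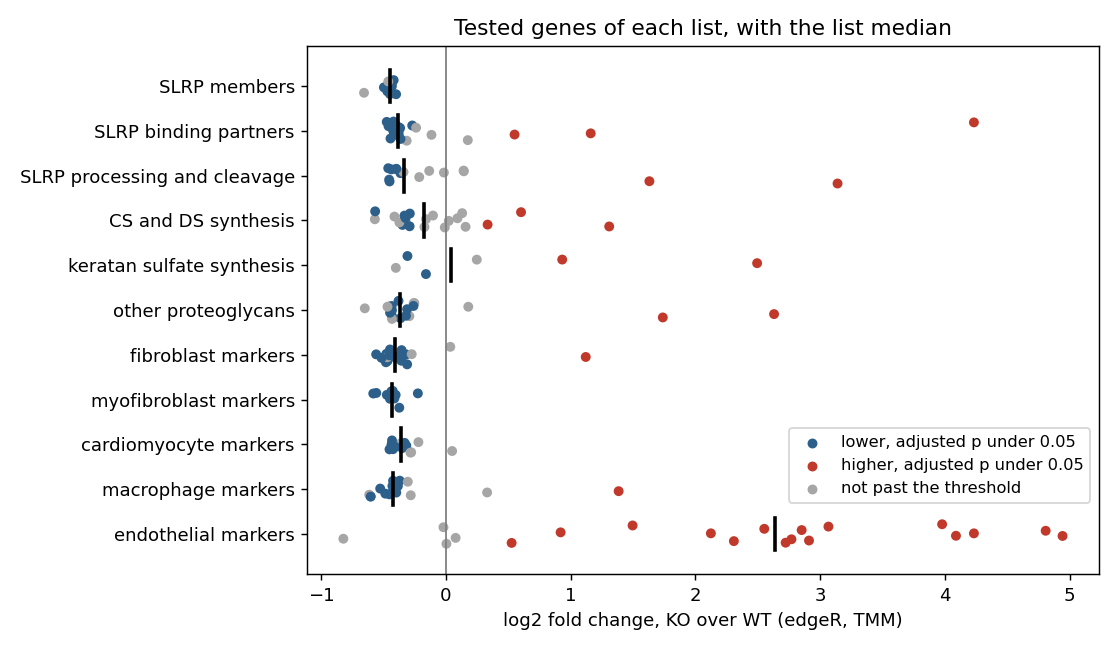
Log2 fold change (KO over WT, edgeR with TMM) of each tested gene, by list, with a black bar at the list median and colour for genes past an adjusted p of 0.05. Of the 9 tested members, all but *Optc* (-0.66) sit between -0.50 and -0.40, near most fibroblast, myofibroblast and macrophage markers, while most endothelial markers lie to the right (median 2.64).

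Most tested marker lists had a lower median in KO, as the SLRP genes did, while endothelial markers rose. Summed CPM of 20 endothelial markers was 2787 to 3720 in KO and 901 to 903 in WT, and 16 of the 20 were higher (*Nos3* by 4.94, *Cd34* by 4.81). *Eng* (-0.02), *Ptprb* (0.08), *Sox17* (-0.82) and *Cldn5* did not pass the threshold. Of the 20 fibroblast markers 16 were lower and 1 higher, with a median of -0.41 (summed CPM 8316 to 9399 in KO and 11641 to 11816 in WT), and *Serpinf1* (-0.56) and *Loxl1* (-0.52) had the largest falls past the threshold. All 10 myofibroblast markers were lower, with a median of -0.43 (*Tpm2* -0.58, *Actg2* -0.56). Cardiomyocyte markers (9 of 15 tested lower, median -0.36, summed CPM 1471 to 1569 in KO and 1781 to 1823 in WT), macrophage markers (11 of 16 lower and 1 higher, median -0.42, 1435 to 1484 and 1831 to 1919) and mesothelial markers (9 of 10 lower and 1 higher, median -0.41, 545 to 613 and 744 to 752) shifted by about the same amount. In these 3 lists the largest falls among genes past the threshold were *Myh6* (-0.45) and *Tnnt2* (-0.44), *C1qb* (-0.60) and *Tyrobp* (-0.60), and *Bnc1* (-0.55) and *Krt18* (-0.54), while *Cd68* (1.38) and *Krt19* (1.53) rose. Of 7 mural cell markers tested, 3 were lower (*Cspg4* -0.43, *Des* -0.42) and 2 higher (*Mcam* 1.38). Summed lymphocyte and erythroid markers stayed below 2 CPM in every library. The part of these shifts in the SLRP result was not tested.

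The SLRP genes were therefore also read relative to fibroblast markers. That list includes matrix genes such as *Loxl1* and *Pcolce*, and *Pcolce* is also on the processing list. Values on this scale are relative to those markers only. When libraries were scaled so that the fibroblast markers had the same median ratio, the median of all genes moved up by 0.42 on the log2 scale and 8803 genes (62.5%) were higher and 38 (0.27%) lower by edgeR. On this scale 0 of the 9 tested SLRP genes passed the threshold, in either direction. The log2 fold changes of the 7 genes that fell under TMM ran from -0.078 (*Prelp*) to 0.023 (*Dcn*), with edgeR adjusted p from 0.399 to 0.97. The 95% interval was -0.15 to 0.06 for *Bgn* and -0.09 to 0.14 for *Dcn*, and it was wider for *Podn* (-0.39 to 0.30). Cardiomyocyte and macrophage marker scaling, under which 60.7% of genes were higher and 0.341% lower, also left 0 members past the threshold. Scaling by 14 reference genes of the whole cell, in contrast, left 7 members lower, with *Bgn* at -0.48 and *Dcn* at -0.41.

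**Figure D4:**
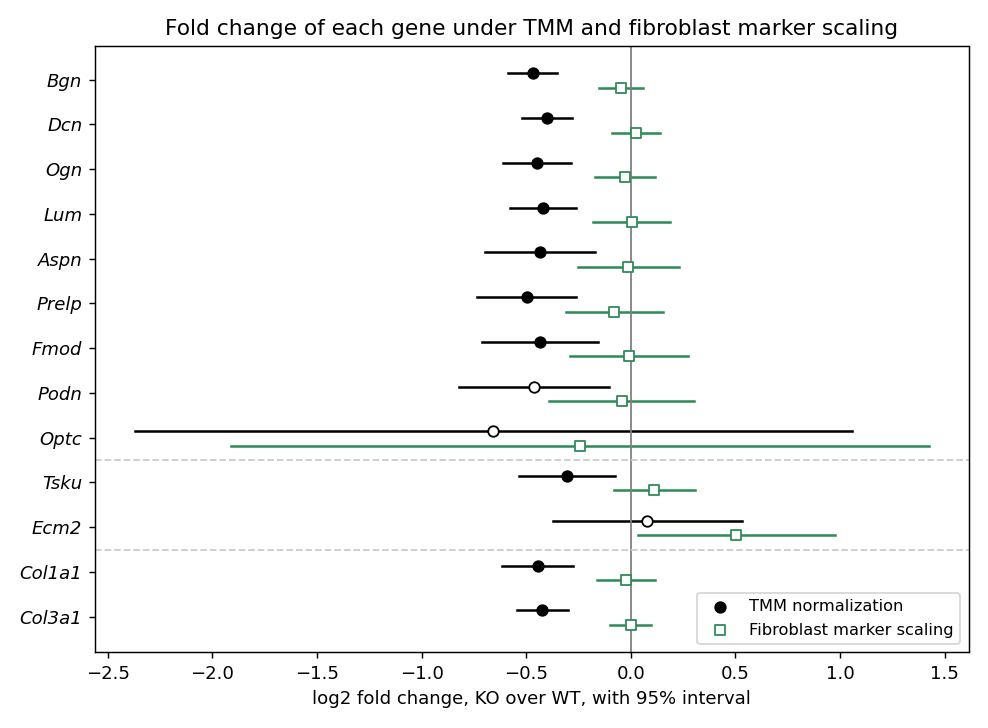
Log2 fold change (KO over WT) with 95% interval from edgeR for the 9 tested members, 2 other SLRP genes and 2 collagens, under TMM (black circles) and fibroblast marker scaling (green squares), with symbols filled where the adjusted p is under 0.05. Under TMM the members lie between -0.66 and -0.40, and under fibroblast marker scaling they lie between -0.24 (*Optc*) and 0.023 (*Dcn*).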

How the data were processed

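Per the labels and the study's methods, paired-end reads were mapped to mm10 with HISAT2, and the submitters' processing notes also name GRCm38.p4 and edgeR. The authors deposited 2 values per gene and library: raw counts without normalization, and FPKM, which are those counts per kb of gene length and relative to the library's total. The counting tool and its strand setting are not given in the sources used here, so genes overlapping on opposite strands may share reads.

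The test was edgeR 4.0.16 under R 4.3.3 (filterByExpr and TMM, then glmQLFit, glmQLFTest, Benjamini-Hochberg adjustment over the 14084 genes kept), with all 6 libraries and no covariate. Intervals reflect the spread among 3 libraries of a label and counting error. Replicate pairs differed by more than sampling noise (chi-square p under 0.05 in 22.4% to 32.2% of genes). The members and lists were chosen with earlier results of these data known. Named genes are all members, called genes among other SLRPs, per list the 2 largest rises and falls past the threshold at a mean FPKM of at least 1, and *Col1a1*, *Col3a1*, *Tgfb1*, *Tgfb2*, *Tgfb3*, *Tlr2*, *Tlr4* and *Kdm5b*; other genes named (*Egfr*, *Bmp1*, *Mmp2*, *Dse*, *Ecm2*, other SLRPs with few or no counts, *Scp2*, *Cenpp*, *Xist*, *Ddx3y*, *Eng*, *Ptprb*, *Sox17*, *Cldn5*) were chosen after their values were seen. Markers of 9 cell types were read from fixed lists. The alternatives tried were DESeq2 1.42.0, limma 3.58.1 on log2(FPKM + 1) and log2(FPKM + 0.1), other scalings, no filter or a mean CPM minimum of 1, a replicate block, and each library left out. Ratios without each library were added after seeing the data. Tests were first tested on simulated data. There 12 of 50 genes changed 1.35-fold and 32 of 50 changed 1.5-fold were called, and 5.3% of calls were false. Main mRNA lengths came from GENCODE M21 (GRCm38). Permutation tests used scipy 1.17.1, and figures matplotlib 3.10.9.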

Additional observations from a re-analysis of the deposited data

How the results depend on the processing

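Under DESeq2, library size, limma, reference gene scaling, no filter and a mean CPM minimum of 1, 7 SLRP genes were lower, and under the upper quartile 8. Leaving out 1 library gave 5 to 7 (5 without KO replicate 3 or WT replicate 1), a median of -0.51 to -0.39, and 1131 to 1614 genes lower (1131 without KO replicate 3). The labels do not say whether the replicate numbers pair the samples. Deviations of same-numbered KO and WT libraries correlated at 0.045 to 0.079, and those of other numbers at -0.049 to 0.001. Whether same-numbered libraries share a batch was not tested. With the replicate number as a block 3907 genes and 7 SLRP genes were called.

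Fibroblast marker scaling called 8841 genes (8803 higher, 38 lower), and cardiomyocyte and macrophage marker scaling, which moved the median of all genes by 0.40, 8597 (8549 higher, 48 lower). Both called 0 SLRP genes, with medians of -0.028 and -0.055 and a log2 ratio of the summed FPKM of -0.019 and -0.047. By construction both scalings set markers that fell to no change. They turned *Tsku* to 0.11 and 0.087, *Kdm5b* to 0.21 and 0.18 and *Tlr2* to 0.16 and 0.13, and fibroblast marker scaling turned *Dcn* to 0.023, *Lum* to 0.0041, *Tgfb2* to 0.017 and *Tgfb3* to 0.0067. Under both, 0 genes were lower in each related list, and 4 binding partners, 4 other proteoglycans, 7 chondroitin and dermatan sulfate enzymes and 6 processing genes were higher, against 62.5% and 60.7% of all genes.

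With a library left out *Ecm2* ran from -0.062 (without WT replicate 2) to 0.24, and *Tlr4* from -0.94 (without KO replicate 2) to 1.21, with -0.15 without WT replicate 1 and -0.16 without WT replicate 3. Among other SLRPs, 0 were lower under library size, both limma fits, the mean CPM filter and the replicate block, and 0 or 1 with a library left out. The CPM filter removed *Nyx* from the genes tested, so 0 of this list were then higher, and no call of *Nyx* is used. Lower keratan sulfate genes numbered 0 under DESeq2 and 1 under library size, both limma fits, no filter, reference gene scaling, the replicate block and with each library left out. The cause of these changes was not tested. *Omd* (0 to 7 counts per library) and *Optc* (0 to 14) rest on few counts.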
